A study of Mus musculus with 2 samples.

Results

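The genes described here are the core of the Hippo-YAP pathway: the kinases Lats1 and Lats2, the coactivators Yap1 and Wwtr1 (TAZ), the DNA-binding factors Tead1 to Tead4, and the target genes Ctgf and Cyr61. They were chosen by gene symbol, and all 10 were found among the 21628 entries of the table. RNA was sequenced from sorted cells of the lingual epithelium of Sox2GFP mice at postnatal day 0. Sorting binned the cells of pooled pups by GFP brightness. The GFP-high and the GFP-low population each held about 100000 cells. The populations came from the same pool of mice of mixed background, received no treatment that the labels name, and were separated by fluorescence alone. GFP reports the activity of the Sox2 locus, so both populations are GFP-positive bins of 1 reporter, and GFP-negative cells are not analysed here. There is 1 library per population, so no difference below has a replicate check, and no test was run.

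Hippo signalling is a kinase cascade that limits organ growth. The Lats kinases, activated by the Mst kinases with Sav1 and Mob1, phosphorylate YAP and TAZ, which are then held in the cytoplasm or degraded. Unphosphorylated YAP and TAZ enter the nucleus, bind TEAD factors and switch on genes such as Ctgf, Cyr61 and Amotl2. In stratified epithelia nuclear YAP is a feature of basal, dividing keratinocytes, and its regulation there is largely at the level of phosphorylation and location, which mRNA levels do not show.

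Values are FPKM, a measure of transcript abundance that corrects for transcript length and for sequencing depth, so levels of different genes can be set side by side. A gene was called higher in a population at 5 FPKM or more there and a ratio of at least 1.5 between the populations. By this rule 3 of the 10 Hippo-YAP genes were called higher in GFP-low cells (Lats2, Tead1 and Ctgf), where 8.9% of the 10760 genes that reached 5 FPKM in at least 1 population were called in that direction. None of the 10 was called higher in GFP-high cells, where the share of all genes was 9.48%. The median log2 ratio of GFP-high over GFP-low was -0.24 over the 10 genes and -0.04 over all genes tested. When each library was divided by its FPKM sum (the TPM scale), every log2 ratio moved by -0.10, Wwtr1 also passed the rule, and 4 of the 10 genes were called higher in GFP-low cells against 11.3% of all genes. On that scale 7.5% of all genes were called higher in GFP-high cells, and the part of all calls that lay in GFP-high cells was 39.8% in place of 51.6%.

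**Figure D1:**
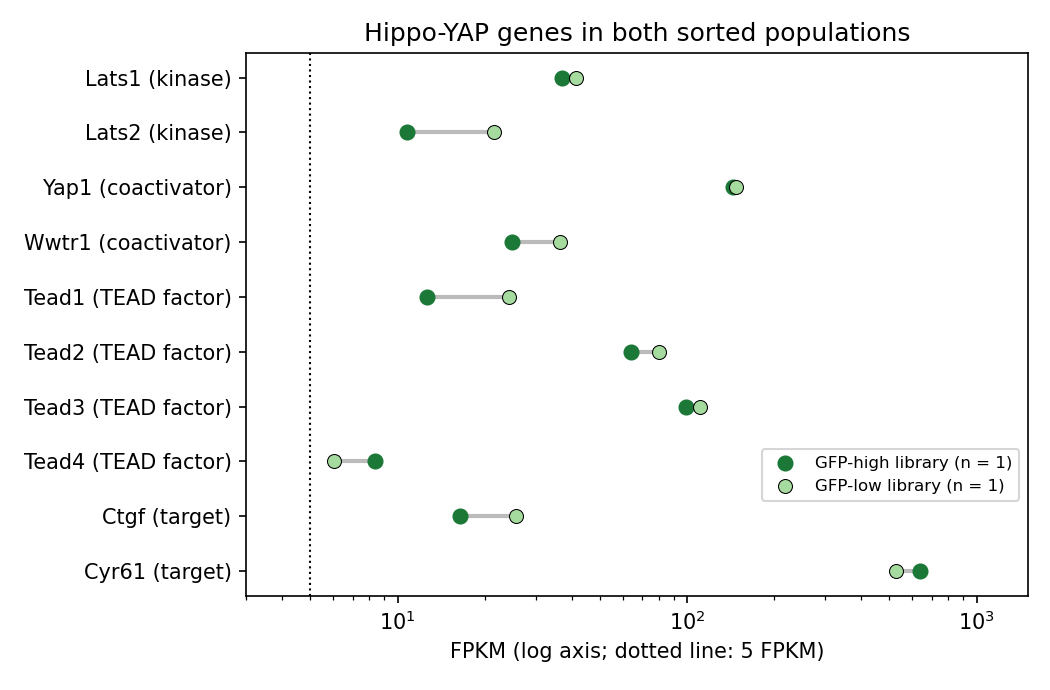
FPKM of each Hippo-YAP gene on a log axis in the GFP-high library (dark green) and the GFP-low library (light green), 1 library each, joined by a grey line. Cyr61 lies highest at 636 and 525 FPKM, Tead4 lowest at 8.33 and 6.03 FPKM, and the widest gaps are those of Lats2 and Tead1.

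All 10 genes reached 5 FPKM in both populations, and their levels spanned from Tead4 to Cyr61. From the highest, the order was Cyr61, Yap1, Tead3, Tead2, Lats1, Wwtr1, Ctgf, Tead1, Lats2 and Tead4, and it was the same in both libraries. With 1 library each, no pair of neighbours in this order can be set against a spread. Depth, estimated from the steps in low FPKM, came to some 27000000 reads for GFP-high and 35000000 for GFP-low cells, under the roughly 75000000 reads per sample in the labels. The estimate is approximate, and the reads behind each gene are not known.

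The Lats kinases differed from each other. Lats1 stood at 37.1 FPKM in GFP-high against 41.3 FPKM in GFP-low cells, a log2 ratio of -0.15. Lats2 stood at 10.8 FPKM in GFP-high against 21.5 FPKM in GFP-low cells, 1.99-fold higher in GFP-low cells. Lats2 was the lowest ratio of the 10, and 4.35% of all genes tested had a lower one. Lats1 supplied 77.5% of the summed FPKM of the kinases in GFP-high against 65.7% in GFP-low cells, so it was the more abundant Lats transcript in both. Such shares are ratios within a library and do not depend on how the libraries are scaled. The level of Lats2 is uncertain in the annotation: 42.4% of its exonic bases on chromosome 14 (57689662 to 57758388 of mm10) also belong to Gm49361, a gene on the same strand that is not among the entries used here, and 41.2% of its 50-nt windows occur in transcripts of another gene. How reads in the shared stretch were assigned was not stated.

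The coactivators are the part of the pathway that the kinases control. Yap1 was the second most abundant of the 10 genes in each library, with 145 FPKM in GFP-high against 147 FPKM in GFP-low cells. Its log2 ratio of -0.03 lay in the middle of all genes, of which 51.9% had a lower one, and its sign turned to 0.01 when GFP-low values were multiplied by the median ratio of all genes. Wwtr1 stood at 24.9 FPKM in GFP-high against 36.3 FPKM in GFP-low cells. This was 1.46-fold higher in GFP-low cells, just short of the rule, and 9.70% of all genes had a lower ratio. Yap1 FPKM exceeded Wwtr1 FPKM 5.82-fold in GFP-high against 4.06-fold in GFP-low cells. The summed level of both, whose log2 ratio of -0.12 turned to 0.26 on a scale set by basal keratinocyte genes (described below), was 169 FPKM in GFP-high against 184 FPKM in GFP-low cells, of which Wwtr1 supplied 14.7% and 19.8%.

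**Figure D2:**
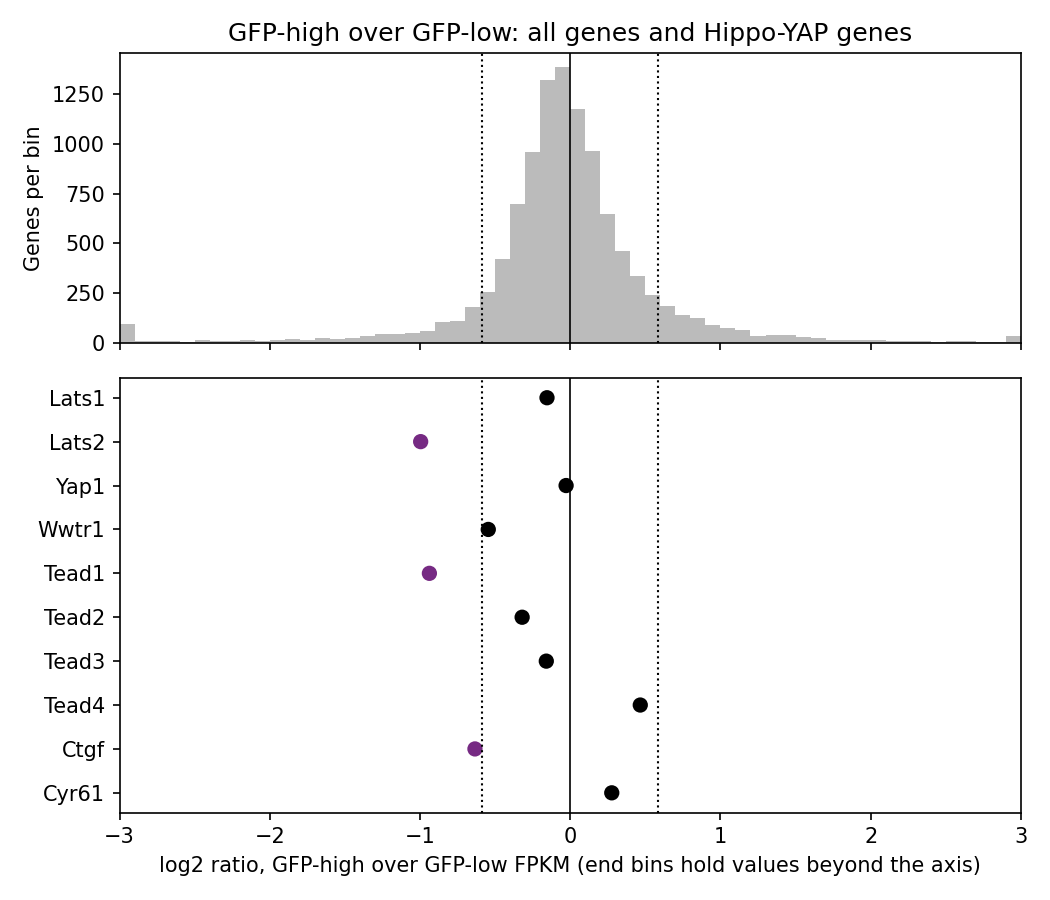
Upper panel: number of genes by log2 ratio of GFP-high over GFP-low FPKM, for genes with 5 FPKM or more in at least 1 population. Lower panel: the Hippo-YAP genes on the same axis, with called genes in purple and the 1.5-fold limits dotted; Lats2, Tead1 and Ctgf lie beyond the left limit and Wwtr1 just inside it.

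TEAD factors carry YAP and TAZ to DNA. Tead3 was the most abundant, with 99.1 FPKM in GFP-high against 111 FPKM in GFP-low cells. Tead2 followed, with 64.1 FPKM in GFP-high against 80.0 FPKM in GFP-low cells. Together these paralogs made up most of the TEAD transcripts in both populations, with Tead3 at 53.8% of the family's FPKM in GFP-high against 50.1% in GFP-low cells, and Tead2 at 34.8% and 36.2%. Tead1 stood at 12.7 FPKM in GFP-high against 24.3 FPKM in GFP-low cells, 1.92-fold higher in GFP-low cells, and 4.63% of all genes had a lower ratio. On the scale set by basal keratinocyte genes it fell just short of the rule (-0.56). Tead4 had the opposite sign, with 8.33 FPKM in GFP-high against 6.03 FPKM in GFP-low cells, a log2 ratio of 0.47 that did not pass the rule. Tead1 exceeded Tead4 4.03-fold in GFP-low cells and 1.52-fold in GFP-high cells. The less abundant factors thus had ratios of opposite sign, on every scale tried, while Tead2 and Tead3 had log2 ratios of -0.32 and -0.16. The summed TEAD level was 184 FPKM in GFP-high against 221 FPKM in GFP-low cells, a log2 ratio of -0.26 that ran from -0.36 to -0.22 on the TPM scale and the scale set by the median ratio of all genes, and turned to 0.11 on the scale set by basal keratinocyte genes.

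**Figure D3:**
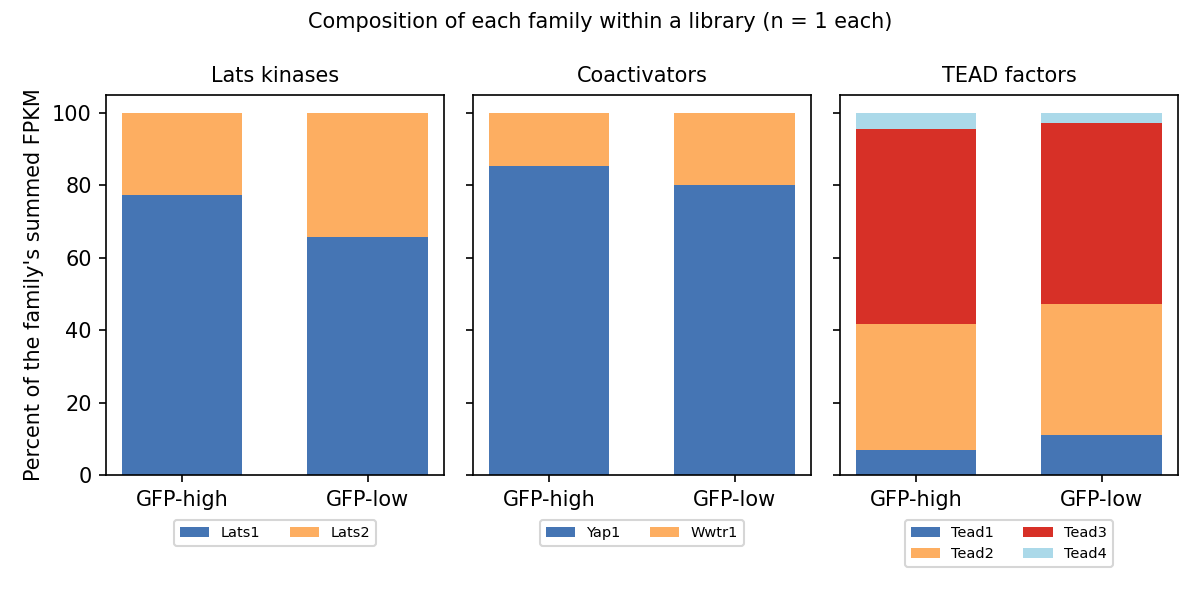
Share of each gene in the summed FPKM of its family (percent, bars from 0), for the Lats kinases, the coactivators and the TEAD factors, in 1 GFP-high and 1 GFP-low library. The share of Lats2 is 34.3% in GFP-low against 22.5% in GFP-high cells, that of Wwtr1 19.8% and 14.7%, and that of Tead1 11.0% and 6.89%.

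The target genes Ctgf and Cyr61 encode secreted matricellular proteins of the CCN family. Ctgf stood at 16.5 FPKM in GFP-high against 25.6 FPKM in GFP-low cells, 1.55-fold higher in GFP-low cells, a call lost on the scale set by basal keratinocyte genes (-0.26). Cyr61 stood at 636 FPKM in GFP-high against 525 FPKM in GFP-low cells, a log2 ratio of 0.28 that did not pass the rule. The targets had ratios of opposite sign, and Cyr61 FPKM exceeded Ctgf FPKM 38.6-fold in GFP-high against 20.5-fold in GFP-low cells. By FPKM, Cyr61 ranked 173 among all genes of the GFP-high library, and 211 for GFP-low cells. Ctgf lies on chromosome 10 (24595442 to 24598683 of mm10), where 23.2% of its exonic bases are also covered on the opposite strand by the non-coding gene Gm15270. The libraries were stranded, but whether strand was used in the quantification was not stated, so reads of Ctgf and of its antisense partner may not have been told apart. Cyr61 lies on chromosome 3 (145646976 to 145649981), and none of its 50-nt windows (0 of 1970) occur in transcripts of another gene.

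Cyr61 is also an immediate early gene, induced within minutes by serum and mechanical stress, and tissue was digested with enzymes before sorting. The 15 dissociation and immediate early genes of a list made for this purpose summed to 12142 FPKM in GFP-high against 11314 FPKM in GFP-low cells, with Fos highest at 2589 and 2588 FPKM and none at 0. Their median log2 ratio was 0.19, and GFP-high cells had the higher value for 11 of the 15. On the TPM scale the median was 0.086, and some of the 11 turned negative. Fosl1 (103 against 47.2 FPKM) and Atf3 (1345 against 863 FPKM) were called higher in GFP-high cells, and Egr1 (1314 against 1972 FPKM) was called higher in GFP-low cells. Atf3 lost its call on the TPM scale, and Egr1 under the median ratio of all genes. Of the 50-nt windows of Fosl1, 52.6% occur in transcripts of another gene. For Hspa1a and Hspa1b, which are among the 11, the parts were 66.3% and 62.3%. For Jund, lower in GFP-high cells, it was 48.3%. The part of dissociation in the level of Cyr61 was not tested.

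The promoter of Cyr61 holds the core of the TEAD motif, GGAATG, which was searched on both strands of RefSeq promoters of the mouse build GRCm38.p6, from 250 bases before to 50 bases after each gene start. Of 32851 promoters of this length, 14.7% hold these letters or their reverse complement. The set of RefSeq promoters used here covered 7 of the 10 genes (Yap1, Wwtr1, Tead2, Tead3, Lats1, Lats2 and Cyr61), with 11 promoters in all. That set held none for Ctgf, Tead1 and Tead4. The letters were present in 7 of the 11 promoters, from 5 genes: Cyr61, Yap1, Wwtr1, Tead3 and Lats2. Promoters of a gene can overlap, and both Wwtr1 promoters hold the same site, so the 9 matches are 8 distinct sites, of which 4 belong to Tead3. In the first promoter of Lats2 they lie just after the gene start (base 0), from base 4 to base 9. The AP-1 motif TGACTCA, searched in the same way, was found in 0 of the 11, against 5.2% of all promoters. A match describes these letters only, and no binding was measured. Shown are the 250 bases before the start of 4 genes whose upstream window holds the motif, to place it beside the levels above, written 5′ to 3′ on the strand of the gene with the motif in capitals (in Cyr61, its reverse complement). They are chr3:145649986-145650235 (minus strand) for Cyr61, chr9:8004597-8004846 (minus strand) for Yap1, chr3:57575911-57576160 (minus strand) for Wwtr1 and chr17:28350806-28351055 (minus strand) for Tead3.
Cyr61: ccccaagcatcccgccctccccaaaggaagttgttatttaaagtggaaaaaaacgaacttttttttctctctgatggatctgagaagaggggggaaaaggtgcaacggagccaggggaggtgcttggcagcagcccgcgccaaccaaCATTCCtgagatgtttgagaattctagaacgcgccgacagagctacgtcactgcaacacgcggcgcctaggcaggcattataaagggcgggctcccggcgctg
Yap1: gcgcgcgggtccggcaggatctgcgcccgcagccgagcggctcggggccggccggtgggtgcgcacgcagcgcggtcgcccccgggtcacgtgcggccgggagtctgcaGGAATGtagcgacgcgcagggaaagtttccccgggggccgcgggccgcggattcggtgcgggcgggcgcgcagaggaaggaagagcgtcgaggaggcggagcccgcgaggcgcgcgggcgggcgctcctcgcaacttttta
Wwtr1: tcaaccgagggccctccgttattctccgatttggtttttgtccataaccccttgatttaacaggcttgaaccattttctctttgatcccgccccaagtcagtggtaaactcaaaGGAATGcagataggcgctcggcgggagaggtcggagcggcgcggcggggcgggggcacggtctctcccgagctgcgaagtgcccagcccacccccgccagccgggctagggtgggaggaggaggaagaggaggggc
Tead3: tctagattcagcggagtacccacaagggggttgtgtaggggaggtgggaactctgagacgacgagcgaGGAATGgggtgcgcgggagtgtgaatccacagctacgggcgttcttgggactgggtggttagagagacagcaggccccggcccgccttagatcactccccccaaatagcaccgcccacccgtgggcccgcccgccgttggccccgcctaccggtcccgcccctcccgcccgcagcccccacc

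The motif lies from base -103 to base -98 in Cyr61, from -141 to -136 in Yap1, from -136 to -131 in Wwtr1 and from -182 to -177 in the first Tead3 promoter, counted from the gene start at 0. The second Tead3 promoter, not shown, holds 3 more, from -123 to -118, from -114 to -109 and from 2 to 7 of its own start. The genes that carry it do not share a direction: Cyr61 had a log2 ratio of 0.28, Yap1 of -0.03, Wwtr1 of -0.55, Tead3 of -0.16 and Lats2 of -0.996. Tead2 and Lats1, without these letters in their promoters, had log2 ratios of -0.32 and -0.15.

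Beyond the 10 genes, 87 other genes of the pathway in 9 lists were examined, of which 73 reached 5 FPKM in at least 1 population. Of these, 6 (8.22%) passed the rule in each direction, beside 9.48% (GFP-high) and 8.9% (GFP-low) of all genes, and the 87 had a median log2 ratio of -0.06. Among the 5 partners of the core cassette only Sav1, the scaffold of the Mst kinases, passed the rule, with 19.0 FPKM in GFP-high against 29.2 FPKM in GFP-low cells, and it lost its call under the median ratio of all genes. Of its 50-nt windows, 24.7% occur in transcripts of another gene. Mob1a, a Lats activator, was the most abundant partner, at 93.3 FPKM in GFP-high against 90.2 FPKM in GFP-low cells. The median of the 5 was 0.03 and turned to -0.07 on the TPM scale and to -0.01 without the 10 highest genes of either library.

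Of 10 kinases upstream of Lats, 8 were lower in GFP-high cells, as were 55.4% of all genes tested, and the median log2 ratio was -0.17. On the scale set by basal keratinocyte genes (described below), this median and most of the 8 ratios turned positive. Tnik passed the rule, with 4.14 FPKM in GFP-high against 11.0 FPKM in GFP-low cells, and so did Taok3, with 12.0 FPKM in GFP-high against 7.86 FPKM in GFP-low cells. Tnik lost its call with 5 FPKM required in both populations, and Taok3 on the TPM scale and without the 10 highest genes. Mink1 was the most abundant at 476 FPKM in GFP-high against 500 FPKM in GFP-low cells. Among 12 membrane and scaffold regulators the median was -0.24, the same as for the core genes, and both turned positive on the scale set by basal keratinocyte genes. Amot, an angiomotin that binds YAP, was called higher in GFP-low cells at 22.2 FPKM against 11.3 FPKM in GFP-high cells. The protocadherin Fat1 was the most abundant of that list, at 105 FPKM in GFP-high against 131 FPKM in GFP-low cells.

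No gene of the 8 polarity genes, the 14 genes of cytoplasmic retention and turnover, the 11 genes of the STRIPAK phosphatase complex or the 4 vestigial-like TEAD partners passed the rule. The polarity list had a median of 0.15, with Pard3 highest at 285 FPKM in GFP-high against 239 FPKM in GFP-low cells. The retention list, which holds the Ywha proteins that bind phosphorylated YAP, had a median of -0.03 (0.01 under the median ratio of all genes), and Sfn had its highest mean of both libraries, at 1197 FPKM in GFP-high against 844 FPKM in GFP-low cells. The STRIPAK median was 0.04, with Ppp2r1a highest at 331 and 287 FPKM, and turned to -0.06 on the TPM scale. Vgll4, which competes with YAP for TEAD, stood at 111 FPKM in GFP-high against 122 FPKM in GFP-low cells.

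**Figure D4:**
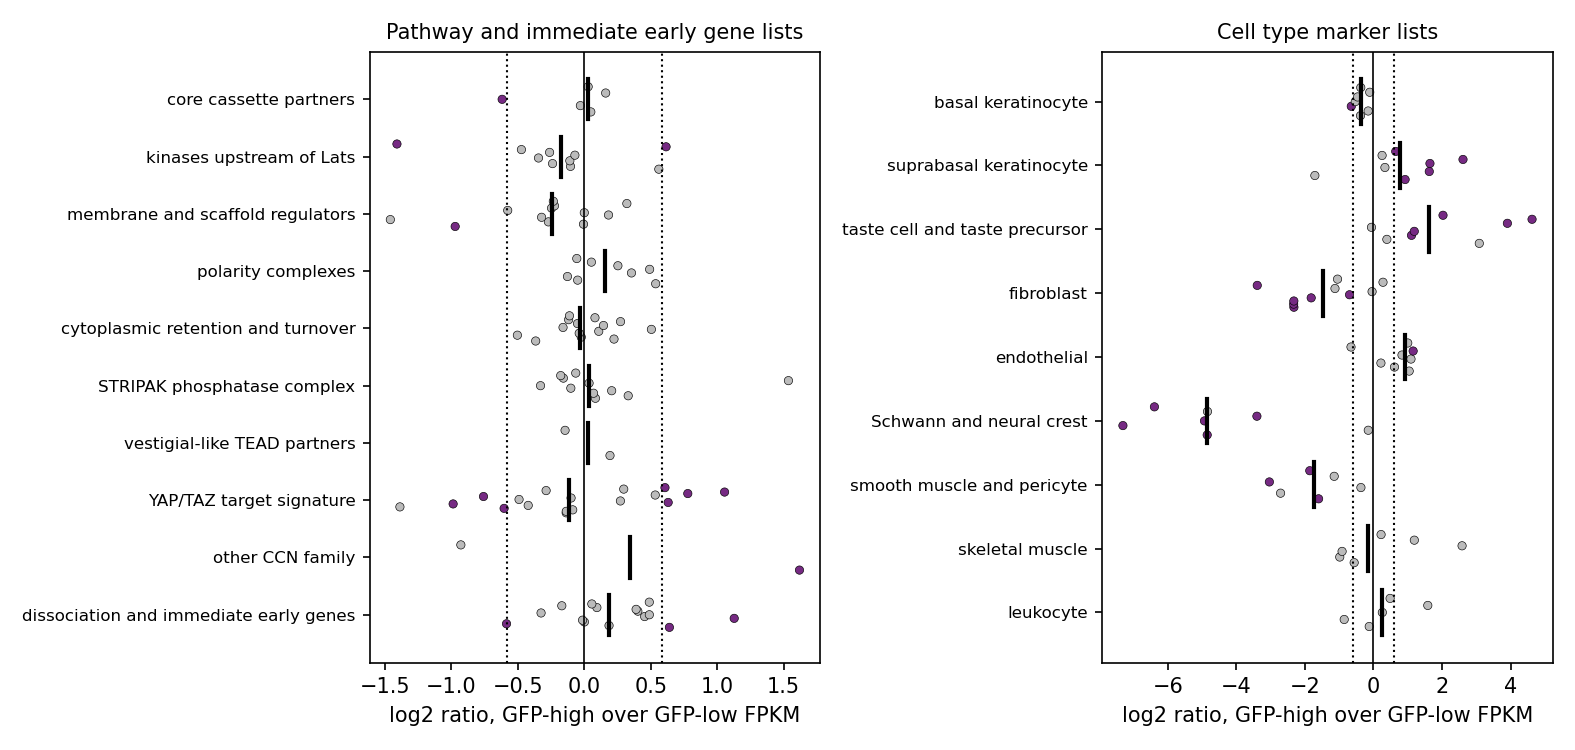
Log2 ratio of GFP-high over GFP-low FPKM for each gene of the pathway lists (left) and cell type marker lists (right), leaving out genes at 0 in either library. Purple points passed the call rule, thick lines are list medians and dotted lines the 1.5-fold limits; the target signature has called genes on both sides, and the Schwann and neural crest median lies at -4.85.

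Other genes used as readouts of YAP and TAZ activity went in both directions. Of 19 genes of a YAP/TAZ target signature, 16 reached 5 FPKM in at least 1 population. Of these, 4 (25.0%) passed the rule on the side of GFP-high cells and 3 (18.8%) on that of GFP-low cells, beside 9.48% and 8.9% of all genes. Ctgf and Lats2, called higher in GFP-low cells, and Cyr61, not called, were counted with the 10 core genes and are not in these counts. The signature had a median log2 ratio of -0.12. The kinase Nuak2 had 62.8 FPKM in GFP-high against 30.2 FPKM in GFP-low cells. The ectonucleotidase Nt5e had 187 against 109 FPKM, F3 (tissue factor) 153 against 98.7 FPKM, and Tgfb2 11.5 against 7.57 FPKM. On the side of GFP-low cells, Igfbp3, with the highest mean of both libraries in the signature, had 112 FPKM in GFP-high against 189 FPKM in GFP-low cells. The receptor Axl had 62.3 against 94.6 FPKM, and Dock5 3.36 against 6.66 FPKM. On the TPM scale F3 and Tgfb2 lost their call, and under the median ratio of all genes Axl did. Tgfb2 also lost it without the 10 highest genes and with a pseudocount of 1. Dock5 was not called with 5 FPKM required in both populations or with a minimum of 10. On the scale set by basal keratinocyte genes (described below) Igfbp3 and Axl lost their call. Among 4 further genes of the CCN family, Nov passed the rule with 8.11 FPKM in GFP-high against 2.64 FPKM in GFP-low cells, but not with 5 FPKM required in both or a minimum of 10, and Wisp3 was listed at 0 in both. The median of the 2 CCN genes above 0 in both libraries was 0.35.

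The sort can be read from the reporter's own gene, named outside the lists. Sox2 had 112 FPKM in GFP-high against 59.0 FPKM in GFP-low cells, a ratio of 1.90. Of 2 epithelial markers of the labelled tissue, Cdh1 had 382 FPKM in GFP-high against 309 FPKM in GFP-low cells, a ratio of 1.23, and Epcam had 166 against 86.8 FPKM, a ratio of 1.91. Every listed marker of other tissues but Cd3e was above 0 in both. All 7 basal keratinocyte genes were lower in GFP-high cells, summed to 25796 FPKM there and 32952 FPKM in GFP-low cells, and had a median log2 ratio of -0.38, with 1 called (Itgb4) and Krt5 highest at 9667 and 10422 FPKM. Of 8 suprabasal genes, 5 were called higher in GFP-high cells (Krt1, Krt4, Krt13, Grhl3 and Sbsn), and the median log2 ratio was 0.79. The list summed to 47572 FPKM against 13784 FPKM in GFP-low cells, most of it from Krt13, highest at 30523 and 9738 FPKM, and Krt4 at 14203 and 2323 FPKM. Ivl went the other way, with 0.67 FPKM in GFP-high against 2.19 FPKM in GFP-low cells. The list of 8 taste cell and taste precursor genes had a median log2 ratio of 1.61, summing in GFP-high cells to 304 FPKM against 159 FPKM, with Krt19 highest by the mean of both libraries, at 141 and 65.3 FPKM. The fibroblast, Schwann and smooth muscle lists had the opposite sign. Of 10 fibroblast genes, 6 were called higher in GFP-low cells (median log2 ratio -1.47), with 473 FPKM summed in GFP-high against 2273 FPKM in GFP-low cells, and Col3a1 highest at 193 and 966 FPKM. The list of 7 Schwann and neural crest genes had a median log2 ratio of -4.85, or -3.63 with a pseudocount of 1. Sox10 stood at 0.51 FPKM in GFP-high against 42.7 FPKM in GFP-low cells. The 7 genes summed to 68.0 FPKM in GFP-high against 275 FPKM in GFP-low cells. Erbb3 was highest by the mean of both, at 60.3 and 66.9 FPKM, and made up most of the GFP-high sum. Of 6 smooth muscle and pericyte genes, 3 were called higher in GFP-low cells (Acta2, Tagln and Myh11; list median -1.73), the list summing to 56.1 FPKM in GFP-high against 124 FPKM in GFP-low cells, with Cspg4 highest by the mean of both, at 30.5 and 39.3 FPKM.

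The remaining lists were low. Of 8 endothelial genes, 7 were higher in GFP-high cells and the median log2 ratio was 0.92, or 0.49 with a pseudocount of 1. Only 2 of the 8 reached 5 FPKM, and 1 (Pecam1) was called higher in GFP-high cells, with sums of 36.6 FPKM in GFP-high against 26.0 FPKM in GFP-low cells and Egfl7 highest at 18.5 and 15.9 FPKM. No skeletal muscle gene of 6 was called (median log2 ratio -0.17), with sums of 5.29 and 6.35 FPKM and Ckm highest by the mean of both, at 1.28 and 2.53 FPKM. No leukocyte gene of 6 was called (median log2 ratio 0.26), with sums of 47.5 and 43.7 FPKM. Most of these sums came from Kit, highest at 31.4 and 26.2 FPKM, and Cd68, at 14.0 and 15.3 FPKM. Ptprc stood at 0.06 FPKM in GFP-high and 0.02 FPKM in GFP-low cells, and Cd3e was listed at 0 in GFP-high cells. No marker was at 0 in both libraries. Lats2, Tead1, Ctgf and Wwtr1 were lower in GFP-high cells together with the basal, fibroblast, Schwann and smooth muscle lists, and the part of these cells in those differences was not tested. In bulk RNA, fewer cells of a type and less of a transcript per cell cannot be told apart.

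The basal keratinocyte genes give another scale for the Hippo-YAP genes. When GFP-low values were multiplied by the median ratio of those 7 genes, a scale chosen after the data were seen, every log2 ratio moved by 0.38. Lats2 kept its call at -0.62, while Tead1 at -0.56 and Ctgf at -0.26 fell short of the rule. Cyr61 at 0.65 and Tead4 at 0.84 were then called higher in GFP-high cells, where 24.3% of all genes were called on this scale, against 3.97% in GFP-low cells. Yap1 stood at 0.35, and 4 of the 10 genes were lower in GFP-high cells in place of 8. On this scale the target signature had 7 calls for GFP-high against 1 for GFP-low cells in place of 4 and 3, Sav1 lost its call, and 4 polarity, 3 retention, 1 STRIPAK and 1 membrane and scaffold gene were called higher in GFP-high cells in place of 0. The immediate early genes had 7 calls for GFP-high against 0 for GFP-low cells.

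**Figure D5:**
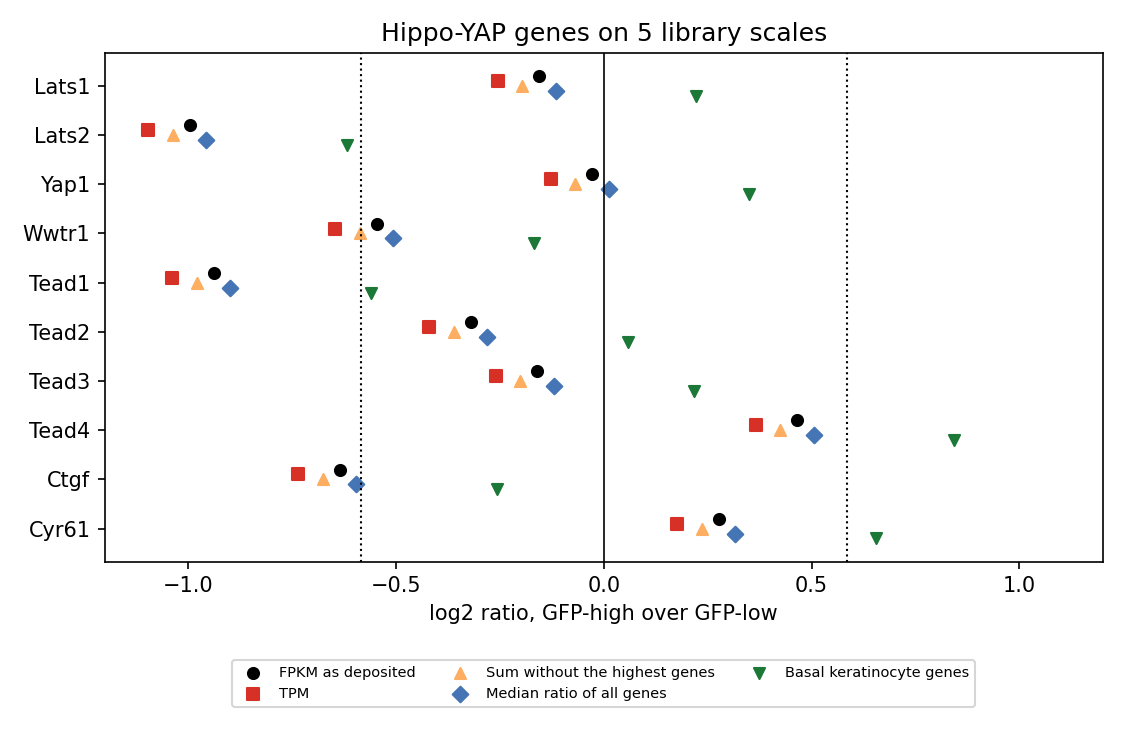
Log2 ratio of GFP-high over GFP-low for each Hippo-YAP gene on 5 library scales, with the 1.5-fold limits dotted. Lats2 stays beyond the left limit on all 5, Wwtr1 crosses it on the TPM scale and without the highest genes, and Yap1 changes sign on the scales set by the median ratio of all genes and by basal keratinocyte genes.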

How the data were processed

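RNAseq profiled 1 library of GFP-high and 1 library of GFP-low cells. Per the submitters' processing notes, the tools used by the authors were Trimmomatic 0.36 for trimming the 50-nt reads, GSNAP for mapping to mm10, and Cufflinks 2.2.1 for the FPKM they deposited. The columns are named means, but the labels give 1 library each. A further deposited column holds the fold between the populations as a score with a sign, and was not used. The 10 genes and all lists were chosen with earlier results of these data known.

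Ratios were computed from the FPKM with no pseudocount. None is given against 0, but a gene listed at 0 in 1 library counted as called where the other library passed the FPKM minimum, or was above 0 where no minimum was set. Of 21628 entries, the 21 typed as other than protein-coding in GENCODE M21 were left out, and the 17 entries without a number in at least 1 column were not compared. List medians cover genes above 0 in both libraries. Named genes are the 10 genes, all called genes of the pathway lists, the gene of each list with the highest mean of both libraries and genes at 0 in both. Sox2, Cdh1, Epcam, Cd3e, Sox10, Ivl and the called marker genes that are named were named outside this rule, after their values were seen. Thy1, Ptprc, Cd68, Hspa1a, Hspa1b and Jund were named in the same way. So were genes named only for a call under another setting. Some called marker genes are not reported here. The 50-nt windows were matched to GENCODE transcripts on either strand. Depth was sought as the number of reads that brings low FPKM of single-transcript genes with 400 to 2500 nt of exons, less 200 nt, nearest to whole reads; 55.6% of 363 values in GFP-high and 54.6% of 328 in GFP-low cells lay within 0.15 of one, too few to recover reads. Protein identity within the families, also planned, was not run. Alternatives were TPM, the FPKM sum without the 10 highest genes of either library, GFP-low values multiplied by the median ratio (0.973) of genes reaching 5 FPKM in both, pseudocounts of 1 and 0.1, other FPKM minimums (5 in both, 1, 10 and none), a 2-fold minimum, all gene types, and, for lists, genes averaging 1 FPKM or more. The ratio of basal keratinocyte genes (0.770) was added once the data had been seen. The computation of the call rule was checked on simulated data, which has no bearing on the spread between mice or sorts. Analyses used Python 3.11.15, pandas 2.3.3, NumPy 2.4.6 and matplotlib 3.10.9.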

Additional observations from a re-analysis of the deposited data

How the results depend on the processing

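No paired analysis was possible because there is 1 library per population. Of 60 ratios of the 10 genes under other scales and pseudocounts, 49 kept their sign and their side of the 1.5-fold limit. Lats2 passed the rule on every scale tried. The 2-fold minimum, applied only to the FPKM as deposited, left 0 of the 10 genes called, with Lats2 just short at 1.99-fold. Of the 10760 genes tested, 467 were called higher in GFP-low cells at 2-fold. On the TPM scale Lats2 (-1.10) and Tead1 (-1.04) lay beyond 2-fold, as did Lats2 (-1.04) without the 10 highest genes. Wwtr1 passed the 1.5-fold rule at -0.65 on the TPM scale and at -0.59 without the 10 highest genes. Yap1 turned to 0.012 under the median ratio of all genes. Under the ratio of basal keratinocyte genes, chosen after the data were seen, Lats2 alone (1 gene) was called higher in GFP-low cells and 2 genes, Cyr61 (0.65) and Tead4 (0.84), in GFP-high cells, where 24.3% of all genes were called. Tead1 (-0.56) and Ctgf (-0.26) lost their call, and Lats1 (0.22), Tead2 (0.057), Tead3 (0.22) and Yap1 (0.35) turned positive, as a shift of 0.38 for every gene implies. With a pseudocount of 1, no family share moved by more than 1.10 percentage points.

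Of all genes, the rule called 1020 for GFP-high and 958 for GFP-low cells. The counts were 1540 and 1563 at a minimum of 1 FPKM, 3131 and 3248 with none, 448 and 467 at 2-fold, and 2612 and 427 under the basal ratio. With 5 FPKM required in both populations they were 777 and 633.

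Of the 87 pathway genes, 3 were called higher in GFP-high cells on the TPM scale in place of 6. Over all genes these calls fell from 1020 to 807. At 2-fold, 2 pathway genes were called for GFP-high and 1 for GFP-low cells, in place of 6 each. All genes also had fewer calls at 2-fold, 448 and 467 in place of 1020 and 958. With no minimum 12 pathway genes were called in GFP-low cells, genes listed at 0 in GFP-high cells included. Calls of all genes there rose from 958 to 3248. Under the median ratio 4 pathway genes were called in GFP-low cells in place of 6, without Sav1 and Axl, and 856 of all genes in place of 958. In the target signature the calls in GFP-high cells went from 4 to 2 (TPM) and 1 (2-fold), and those in GFP-low cells from 3 to 0 (2-fold) and 5 (no minimum). Sav1 lost its call at 2-fold and under the median ratio (0 genes), and Taok3 at 2-fold, on the TPM scale, without the 10 highest genes and with a pseudocount of 1 (0 genes). Tnik lost its call with 5 FPKM in both (0 genes), and Nov with that and with a minimum of 10 (0 genes). Amot lost its call at 2-fold (0 genes). With no minimum, 2 membrane and scaffold regulators (Amot, Dchs2), 2 CCN genes (Wisp1, Wisp2) and 1 vestigial-like gene (Vgll1) were called higher in GFP-low cells, and 1 STRIPAK gene (Strip2) and 1 vestigial-like gene (Vgll2) in GFP-high cells. On the TPM scale 1 gene of retention and turnover (Csnk1e) was called higher in GFP-low cells. Among the immediate early genes, the calls in GFP-high cells fell to 1 (TPM, 2-fold), and that of Egr1 in GFP-low cells to 0 (2-fold, median ratio, pseudocount of 1). Under the basal ratio the signature had 7 calls for GFP-high against 1 for GFP-low cells, without Igfbp3 and Axl.

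Under the planned settings, some list medians near 0 changed sign. On the TPM scale and without the 10 highest genes, they were -0.064 and -0.0051 for STRIPAK, -0.071 and -0.012 for the core cassette, and -0.076 and -0.017 for the vestigial-like genes. The retention median was 0.0092 under the median ratio. For genes with a mean of at least 1 FPKM the STRIPAK median was -0.014. Other medians kept their sign but crossed the 1.5-fold limit: with the same mean, those of the CCN genes (0.35 to 1.62) and skeletal muscle (-0.17 to -0.74), and with a pseudocount of 1 the endothelial median (0.92 to 0.49). With that pseudocount the Schwann median went from -4.85 to -3.63, the taste median from 1.61 to 1.11 and the smooth muscle median from -1.73 to -1.32. Each change of scale moves every ratio by 1 amount. Under the basal ratio, chosen after the data were seen, that amount was 0.38, so list medians between -0.38 and 0 turned positive. The CCN median of 1.62 is that of Nov alone. With 1 library per population, the spread between mice or sorts is unknown.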
